A study of Mus musculus with 12 samples.

Results

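The 37 genes described here are those through which liver makes, senses, exports, takes up and esterifies cholesterol. They were chosen by symbol as a list of the pathway, with earlier results of these data known. Each was represented by its probe set with the highest mean log2 signal over the 12 arrays. Of the 37 genes, 33 had a probe set under their symbol (64 of the 22626 probe sets tested, which name 12393 genes in all). Acat2, Insig1, Nr1h2 and Soat2 had none and are not analysed here. The measured genes were 18 of 19 synthesis enzymes, 4 of 5 genes of sterol sensing, 6 of 7 genes of efflux and of the liver X receptor (LXR), 3 of 4 genes of uptake and esterification, and both other members, Osbpl9 and Rdh11.

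The livers came from 12 male mice aged 6 weeks that carried a human alpha1-antitrypsin gene whose expression was inducible and specific to hepatocytes. Alpha1-antitrypsin is a protease inhibitor that hepatocytes secrete, and its Z mutant misfolds and collects in the endoplasmic reticulum. The transgene encoded the wild-type form in M mice and the mutant, ATZ, in Z mice. The groups M off (M1 in the titles) and Z off (Z1) drank water with 40 µg/mL doxycycline, given from conception until the animals were killed, which kept the transgene silent. M on (M4) and Z on (Z4) received none and expressed it. Each group held 3 arrays, 1 for each biological replicate. Expression of the transgene and absence of doxycycline cannot be told apart in this design, nor can the form of the protein and the mouse line that carries it. The sources used here do not give the strain, the promoter or the number of founder lines. No probe set was named for the human gene, so that its expression was not measured.

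Cholesterol is built from acetyl-CoA through mevalonate, isoprenoid pyrophosphates, squalene and lanosterol. The genes of this route share a transcription factor, SREBP2 (gene Srebf2), which is held in the endoplasmic reticulum by its escort SCAP and by the INSIG proteins while membrane sterol is plentiful. When sterol falls, SCAP carries SREBP2 to the Golgi, where proteases release the active factor. LXR acts on the other side of the balance: bound by oxysterols, it induces the exporters ABCA1, ABCG1 and the ABCG5 and ABCG8 pair, and MYLIP, which marks lipoprotein receptors for degradation. In the liver these branches meet the conversion of cholesterol to bile acids.

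The start of the synthesis genes is shown because these genes read higher or lower together on the arrays below. Of the 37 members, 30 matched a RefSeq promoter window on GRCm38.p6 (not Sqle, Fdps, Fdft1, Stard4, Abcg1, Soat2 and Scarb1), and the 250 bases before the gene start were searched on both strands. The letters sought were TCACNCCAC, the core of a sterol regulatory element, CCAAT, the box bound by NF-Y (ATTGG on the other strand), and a direct repeat of AGGTCA with 4 bases between its copies, the LXR site; matches are in capitals, and the first and second of these patterns share no letters in the windows printed. The window of Hmgcs1 lies at chr13:119690101-119690350 on the plus strand, that of Idi1 at chr13:8885356-8885605 on the plus strand, that of Cyp51 at chr5:4104698-4104947 on the minus strand and that of Msmo1 at chr8:64733579-64733828 on the minus strand.
Hmgcs1: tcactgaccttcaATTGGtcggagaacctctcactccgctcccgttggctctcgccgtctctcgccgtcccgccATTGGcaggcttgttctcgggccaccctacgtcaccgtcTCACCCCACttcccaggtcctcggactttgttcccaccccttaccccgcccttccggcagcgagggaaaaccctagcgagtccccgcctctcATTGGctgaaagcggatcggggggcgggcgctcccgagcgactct
Idi1: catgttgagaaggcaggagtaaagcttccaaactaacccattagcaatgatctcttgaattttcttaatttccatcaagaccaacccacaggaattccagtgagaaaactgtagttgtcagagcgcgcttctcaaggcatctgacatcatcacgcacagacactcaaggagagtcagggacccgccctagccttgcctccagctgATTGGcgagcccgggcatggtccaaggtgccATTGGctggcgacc
Cyp51: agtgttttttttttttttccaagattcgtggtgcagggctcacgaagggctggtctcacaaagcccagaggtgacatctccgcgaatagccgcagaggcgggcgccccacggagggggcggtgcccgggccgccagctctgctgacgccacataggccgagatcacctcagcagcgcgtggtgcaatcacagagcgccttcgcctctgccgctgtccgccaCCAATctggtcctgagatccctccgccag
Msmo1: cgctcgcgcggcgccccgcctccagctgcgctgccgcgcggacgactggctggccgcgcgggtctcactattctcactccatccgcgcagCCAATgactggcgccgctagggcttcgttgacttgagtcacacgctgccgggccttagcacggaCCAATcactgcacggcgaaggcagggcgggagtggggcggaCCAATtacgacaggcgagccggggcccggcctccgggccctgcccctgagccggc
The sterol regulatory core began 137 bases before the start of Hmgcs1, between ATTGG boxes that began 176 and 45 bases before it. Idi1 carried ATTGG 45 and 14 bases before its start, Cyp51 carried CCAAT 29 bases before, and Msmo1 carried it 160, 96 and 55 bases before.

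CCAAT was found for 15 of the 16 synthesis genes with a window (93.8%), against 37.5% of all 27025 genes in the table. Counted by window it was in 15 of 19 synthesis windows (78.9%) and in 33.8% of all 32851 windows. Of the 6 efflux and LXR genes with a window, 2 held it (33.3%). TCACNCCAC was in 346 windows (1.05%) and, among the members, only in that of Hmgcs1. The direct repeat was in 5 windows (0.0152%) and in none of the members' windows. These are matches of letters in short windows; they describe the sequences and show neither a bound site nor, where absent, a missing one.

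Abcg5 and Abcg8 encode the partner subunits of a sterol exporter and are shown because their starts adjoin and their signals ran together on the arrays. Their annotated starts point away from each other with 109 bases between them, at chr17:84683012-84683120 (printed on the plus strand, on which Abcg8 is read).
Abcg5 to Abcg8: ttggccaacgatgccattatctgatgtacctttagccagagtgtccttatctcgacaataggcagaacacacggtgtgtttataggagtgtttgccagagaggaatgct
None of the patterns sought occurred in it.

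Facts of the whole set of arrays bear on what follows. Signals are linear and were scaled to one level per array, with array medians from 38.7 to 47.0 units, and arrays correlated with each other at Pearson r 0.924 to 0.976 over the 11313 brighter probe sets (log2 scale, a description). Alb, the main hepatocyte product, read at least 16217 on every array, and the sum of 7 of 8 hepatocyte markers lay between 66414 and 93956 with no marker at 0. Z off stood apart in genes outside the pathway. The sum of 3 of 5 erythroid markers, none at 0, was 1153 to 1499.9 in Z off and 159.0 to 335.0 elsewhere, carried by Alas2, while Hba-a1 was dim on all arrays (0.70 to 37.6). Genes that follow the time of day (13 of 13 measured) also separated arrays: Dbp read 839, 1104 and 905 in M off, 1556, 1297 and 1094 in M on, 107, 51.1 and 23.8 in Z off, and 1365, 1385 and 80.1 in Z on. The Z off arrays and Z on replicate 3 were thus the low ones, and Arntl and Nfil3, which peak at the opposite time, were highest on the same 4 arrays.

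Genes of feeding state (7 of 8 measured) and markers of other cells also differed. Igfbp1, a gene of the fasted liver, read 186 to 536 in M off and 17.3 to 54.3 in M on, while Pck1, of gluconeogenesis, read 949.7 to 3203 in Z off and 4447 to 5449 in Z on. The list had no common direction: in each line 3 of the 7 genes read higher and 4 lower in the on group. In the Z line Igfbp1 and Fgf21 differed by -0.80 and -1.86, against 1.61 for Pck1. The sum of 7 of 7 stellate cell markers was 1769.8 to 2005 in the off groups and 1088 to 1718 in the on groups, and that of 5 of 5 skeletal muscle markers was 96.3 to 452 in M off and 48.0 to 157 elsewhere. The sum of 6 of 6 sinusoidal endothelial markers was 689 to 741 in M off and 588 to 651 in M on, and that of 5 of 6 lymphocyte markers, all of them dim, was 86.9 to 96.4 in M off and 103 to 121 in Z off. No marker gene of these lists was at 0. The 3′ to 5′ signal ratio of the beta-actin control probe sets, a sign of RNA integrity, was 2.72 to 3.89 in M off, 3.09 to 4.38 in M on, 2.18 to 2.53 in Z off and 2.44 to 5.16 in Z on. The part of these differences in the values of the members was not tested. In bulk liver, fewer cells of a type and less RNA per cell cannot be told apart.

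With the wild-type form expressed, the synthesis enzymes read higher as a group: 17 of 18 had a higher mean in M on than in M off, with a median log2 difference of 0.67. The median over all probe sets was -0.01, and 48.9% of them read higher. For 13 of the 18 enzymes every M on array lay above every M off array, against 5.23% of all probe sets. The enzymes share a transcription factor and were read on the same arrays, so they are not 18 separate observations. The share over all probe sets includes dim ones, whereas each enzyme was read by its brightest probe set. In limma's fit, with p-values adjusted by Benjamini-Hochberg over all 22626 probe sets and an adjusted p under 0.05 as the call, no member was called, and neither was any probe set on the arrays (0%). At an unadjusted p under 0.05, 9 of the 18 enzymes read higher, against 2.76% of all probe sets, and no efflux gene did. Leaving out each M array in turn kept 17 or 18 of 18 higher, 8 or 9 of them at an unadjusted p under 0.05.

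The heat map of the 33 members shows M off as the low group of most synthesis rows.

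**Figure D1:**
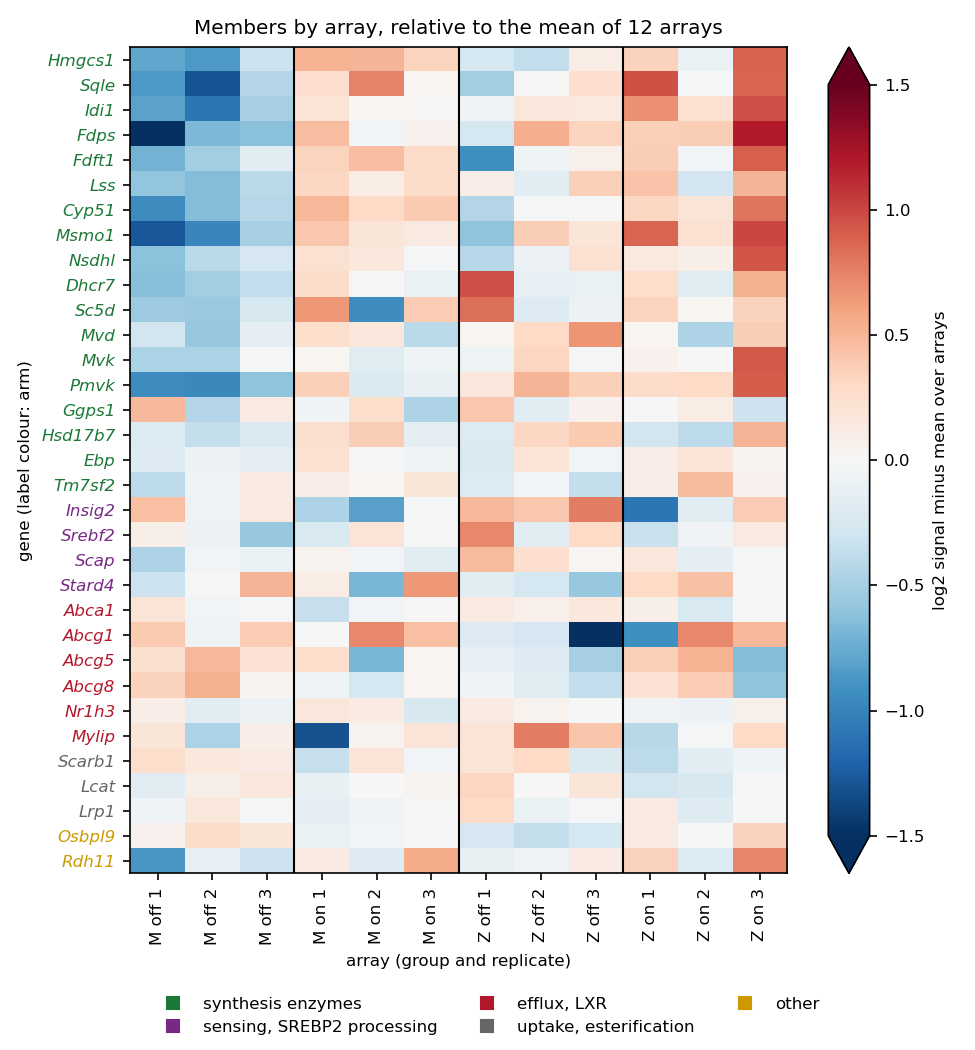
Log2 signal of each of the 33 measured members (rows, label colour by function) on each of the 12 arrays (columns, by group and replicate), minus the gene's mean over the arrays; red is above and blue below that mean. The synthesis rows other than Ggps1 and Tm7sf2 are blue on all M off arrays, and those other than Ggps1 are red in Z on replicate 3, while the efflux rows show no such block.

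At the head of the route, Hmgcs1, which joins acetyl units into HMG-CoA, read 1807, 1697 and 2467 in M off, 4426, 4405 and 3906 in M on, 2586, 2399.7 and 3329 in Z off, and 3922, 2896 and 5696 in Z on. The M on arrays lay above all M off arrays, and the Z groups overlapped. The log2 difference between on and off was 1.11 ± 0.27 (SE) in the M line (adjusted p = 0.541) and 0.55 ± 0.27 in the Z line (adjusted p = 0.799). Its other 3 probe sets gave 1.08 to 1.14 in the M line. Pmvk, a kinase of the mevalonate steps, read 86.3, 84.9 and 109.6 in M off, 212, 143 and 154 in M on, 185, 237 and 212 in Z off, and 202, 204 and 312 in Z on. M off was the low group and did not overlap any other. On against off, Pmvk differed by 0.85 ± 0.24 in the M line (adjusted p = 0.718) and by 0.15 ± 0.24 in the Z line (adjusted p = 0.947).

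The isoprenoid steps come next. Idi1, which isomerises isopentenyl pyrophosphate, read 365, 299 and 449 in M off, 732, 647 and 644 in M on, 613, 718 and 706 in Z off, and 1023, 743 and 1245 in Z on. Here M off lay below every other array, M on and Z off overlapped, and Z on lay above both. Its differences were 0.88 ± 0.23 in the M line (adjusted p = 0.639) and 0.54 ± 0.23 in the Z line (adjusted p = 0.785). Fdps, which makes farnesyl pyrophosphate, read 235, 487 and 506 in M off, 1076, 757 and 818 in M on, 651, 1134 and 984 in Z off, and 996, 1011 and 1776 in Z on. M off was again lowest without overlap, and Z on replicate 3 was the highest array. Fdps differed by 1.17 ± 0.37 in the M line (adjusted p = 0.752), but by 0.67 when its near-silent second probe set was averaged in.

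Squalene is made by Fdft1 and opened to the sterol route by Sqle and Lss. Fdft1 read 532, 605 and 768 in M off, 1094, 1191 and 1058 in M on, 457, 830.4 and 915 in Z off, and 1123, 843 and 1616 in Z on. The M groups did not overlap, and Z off replicate 1 was the lowest array of all. Sqle, the squalene epoxidase, read 173, 128 and 231 in M off, 373, 526 and 319.6 in M on, 218, 317 and 373 in Z off, and 606, 309.7 and 574 in Z on. M on lay above M off without overlap, and Z off and Z on shared a range. Lss, which closes squalene epoxide to lanosterol, read 189.5, 183 and 216 in M off, 353, 309 and 346 in M on, 305, 255 and 367 in Z off, and 385, 234 and 407 in Z on. M off was below all other arrays, and Z on replicate 2 lay below Z off. In the M line the log2 differences were 0.83 ± 0.32 for Fdft1, 1.21 ± 0.35 for Sqle and 0.78 ± 0.24 for Lss (limma adjusted p = 0.894, 0.719 and 0.728).

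Cyp51 and Msmo1 take methyl groups off lanosterol. Cyp51 read 179, 219 and 257 in M off, 485, 424 and 453 in M on, 254, 338 and 345 in Z off, and 427, 393 and 599.9 in Z on. All M on arrays lay above all M off arrays, and all Z on arrays above all Z off arrays. The differences were 1.07 ± 0.23 in the M line (adjusted p = 0.443, the lowest of the members there) and 0.59 ± 0.23 in the Z line (adjusted p = 0.743). The value of Cyp51 depends on the choice of probe set, since its dimmest probe set, at 2.40 to 40.3 units, read lower in M on and the mean of its 3 probe sets gave a difference of 0.06. Msmo1 read 307, 375 and 524 in M off, 985, 839 and 812 in M on, 487, 957 and 839 in Z off, and 1364, 868 and 1492 in Z on. M on lay above M off, and the Z groups overlapped because Z on replicate 2 fell inside the range of Z off. Msmo1 differed by 1.16 ± 0.32 in the M line (adjusted p = 0.71) and 0.73 ± 0.32 in the Z line (adjusted p = 0.791).

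**Figure D2:**
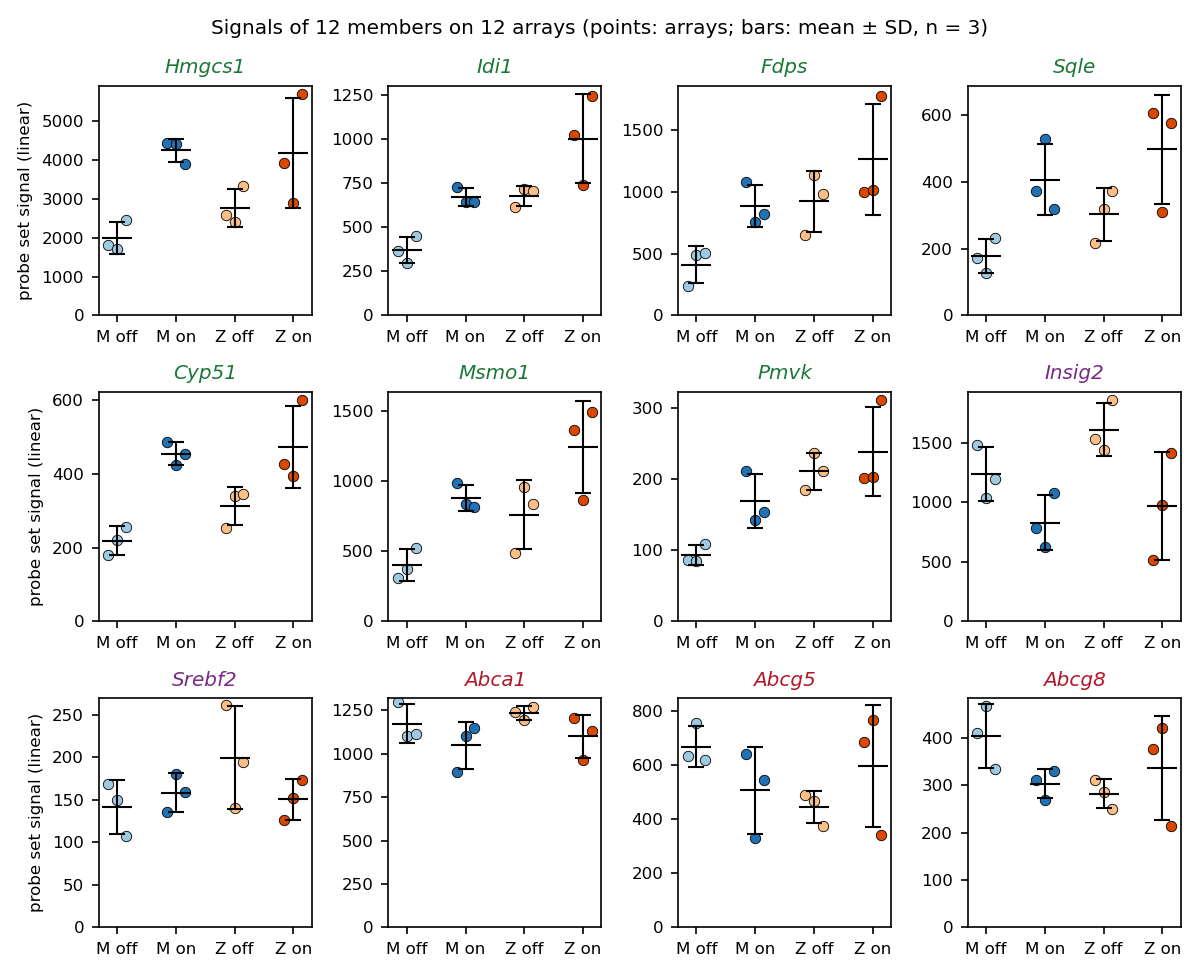
Linear probe set signal (vertical axis, from 0) of 12 members in the 4 groups; points are arrays, and bars are the mean ± SD over 3 arrays. The upper 7 panels are synthesis enzymes, in which M off is the lowest group, and the last 5 are sensing and efflux genes, in which, apart from Srebf2, it is not.

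The other 9 measured synthesis enzymes differed less. Their log2 differences between M on and M off ran from -0.14 for Ggps1, which serves protein prenylation rather than sterols, to 0.57 for Dhcr7, the last reductase before cholesterol. Nsdhl, Dhcr7, Hsd17b7 and Ebp, all of the late sterol steps, had M on arrays above all M off arrays, while the groups overlapped for Sc5d, Mvd, Mvk, Tm7sf2 and Ggps1. The further 19 probe sets of 11 synthesis genes agreed in sign with the reported one in 18 cases in the M line and in 12 cases in the Z line; many of these are dim.

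With the Z mutant expressed, the same enzymes leaned the same way with a smaller and less even difference. The median of the 18 was 0.33 on the log2 scale, 14 had a higher mean in Z on, and over all probe sets the median was -0.03 with 47.0% higher. Only Idi1, Cyp51 and Tm7sf2 had every Z on array above every Z off array, 3 of 18 against 5.22% of all probe sets. limma called 3 probe sets in this comparison (0.0133%), none of them a member's. At an unadjusted p under 0.05, 4 of the 18 read higher, against 2.7% of all probe sets. Replicate 3 of Z on carried much of this: without it 11 of 18 read higher, the median was 0.16, and none was at an unadjusted p under 0.05. That array had the highest signal of all 12 for enzymes that included Hmgcs1, Idi1, Fdps, Fdft1, Lss, Cyp51, Msmo1, Nsdhl and Pmvk. It is also the Z on array whose time-of-day genes read like those of Z off. Without Z off replicate 1 the count at an unadjusted p under 0.05 was also 0, without Z on replicate 1 it was 1, and without Z on replicate 2 it was 6.

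Whether the response differed between the lines was asked by subtracting the M difference from the Z difference. The result was below 0 for 16 of 18 enzymes, with a median of -0.46, against -0.02 over all probe sets, of which 48.5% were above 0. No enzyme passed at an unadjusted p under 0.05, and the lowest adjusted p by limma was 0.933. No probe set on the arrays was called for this contrast (0%), and 5.18% had an unadjusted p under 0.05 in either direction. The largest gaps were those of Fdps (-0.74 ± 0.52), Pmvk (-0.69 ± 0.34), Mvd (-0.69 ± 0.40) and Lss (-0.66 ± 0.34). Leaving out single arrays gave medians from -0.62, without M off replicate 3, to -0.27, without Z on replicate 2.

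Averaged over both lines, on read higher than off for 16 of 18 enzymes with a median of 0.47, against -0.02 and 47.4% over all probe sets. Of these, 11 had an unadjusted p under 0.05, against 2.82% of all probe sets. limma called 2 probe sets (0.00884%), neither a member's, and the lowest adjusted p among the enzymes was 0.319, for Cyp51. This contrast holds all 12 arrays and is no evidence beyond the comparisons within the lines.

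**Figure D3:**
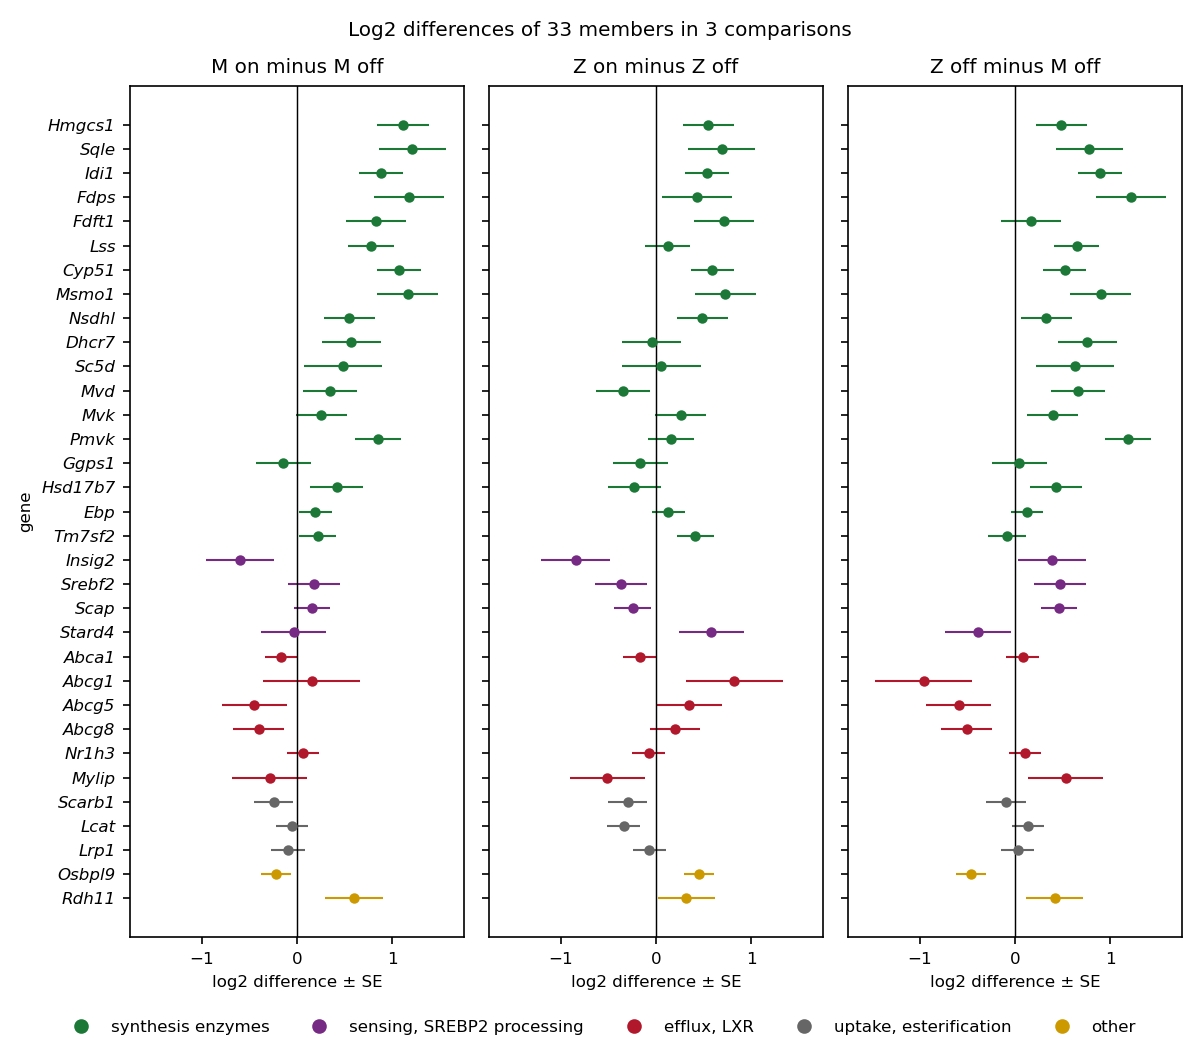
Log2 difference ± SE from limma (horizontal axis) of the 33 measured members (rows, coloured by function) in M on minus M off, Z on minus Z off and Z off minus M off. Synthesis enzymes lie mostly right of 0 in all 3 panels, with medians of 0.67, 0.33 and 0.57; the left and right panels share the M off arrays.

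With the transgene silent, the enzymes also read higher in the Z line. Under doxycycline, 17 of 18 synthesis enzymes read higher in Z off than in M off, with a median log2 difference of 0.57, against 0.03 over all probe sets, of which 52.8% read higher. For 8 of the 18 the groups did not overlap, against 8.36% of all probe sets higher without overlap. limma called 16 probe sets here (0.0707%) and no member. At an unadjusted p under 0.05, 8 enzymes read higher, against 4.44% of all probe sets; the count was 3 without M off replicate 1, 4 without M off replicate 2 or Z off replicate 3, 5 without Z off replicate 2, and 8 without either of the others. Pmvk had the lowest adjusted p, with a difference of 1.18 ± 0.24 (adjusted p = 0.248), followed by Idi1 at 0.89 ± 0.23 (adjusted p = 0.373) and Fdps at 1.22 ± 0.37 (adjusted p = 0.468). Of the 4 sensing genes measured 3 read higher and 1 lower, among them Scap at 0.46, without overlap of the groups, and Stard4 at -0.39. M off is the low group of this comparison and of M on against M off, so the 2 sets of differences share the same 3 arrays and are given side by side only.

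Between the expressing groups the enzymes differed less. In Z on against M on, 14 of 18 read higher, with a median of 0.13, against 0.00 and 50.3% over all probe sets. limma called 2 probe sets (0.00884%) and no member, and only Idi1 had an unadjusted p under 0.05 (3.45% of all probe sets did, on the higher side). Without Z on replicate 3, 10 of 18 read higher. Averaged over states, all 18 enzymes read higher in Z than in M mice, with a median of 0.31, against 0.02 and 52.1%. In that contrast limma called 20 probe sets (0.0884%) and no member, and 4 enzymes had an unadjusted p under 0.05, against 5.19% of all probe sets. Pmvk (0.83 ± 0.17, limma adjusted p = 0.169) and Idi1 (0.72 ± 0.16, adjusted p = 0.222) came nearest to the threshold. They passed it in some other fits of the same values. With variances allowed to follow signal level, limma's adjusted p was 0.0209 for Pmvk and 0.0216 for Idi1. That fit called 110 probe sets in all, against 20 in the fit reported.

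Among the sensing genes Insig2 read lower in the on groups, against most enzymes, and higher in Z off than in M off, by 0.39 ± 0.36. INSIG2 retains the SCAP and SREBP2 complex. Insig2 read 1485, 1034 and 1192 in M off, 788, 622 and 1076 in M on, 1531, 1442 and 1859 in Z off, and 513, 977 and 1415 in Z on. All Z on arrays lay below all Z off arrays, and the M groups overlapped through M on replicate 3. The log2 differences were -0.84 ± 0.36 in the Z line (adjusted p = 0.782), -0.60 ± 0.36 in the M line (adjusted p = 1.00) and -0.72 ± 0.25 over both (adjusted p = 0.752). Its other probe sets read -0.99 and -0.86 in the Z line and -0.70 and -0.46 in the M line, so all 3 lay on the same side.

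The transcript of SREBP2 itself gave small differences of opposite sign in the lines by its reported probe set. Srebf2 read 168, 149 and 107 in M off, 136, 181 and 159 in M on, 262, 141 and 195 in Z off, and 126, 152 and 173 in Z on. The 4 groups overlapped, with Z off replicate 1 the highest array. Srebf2 differed by 0.18 ± 0.27 in the M line and -0.37 ± 0.27 in the Z line (limma adjusted p = 1.00 and 0.871). The dimmer second probe set of Srebf2 had lower means in the on group of both lines. These were 40.2 in M off, 27.0 in M on, 51.3 in Z off and 33.2 in Z on. Scap differed by 0.16 ± 0.19 in the M line and -0.25 ± 0.19 in the Z line. Stard4, a sterol carrier and SREBP2 target, differed by -0.03 ± 0.34 in the M line and 0.58 ± 0.34 in the Z line. In the Z line every Z on array lay above every Z off array (limma adjusted p = 0.851). Its dimmer second probe set overlapped there, at 103 to 177 in Z off and 125 to 303 in Z on.

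Efflux genes and the LXR itself showed no common direction. In M on against M off, 2 of 6 read higher and 4 lower, with a median of -0.23; in Z on against Z off the split was 3 and 3 with a median of 0.06; none had an unadjusted p under 0.05 in either line. Leaving out single arrays gave medians from -0.35 to -0.031 in the M line, the last without M on replicate 1, and from -0.018 to 0.19 in the Z line. In Z off against M off 3 read higher and 3 lower, with a median of -0.21. There Mylip lay above M off without overlap, and Abcg1, Abcg5 and Abcg8 lay below it, 3 of 6 against 6.76% of all probe sets lower without overlap. These 3 are the exporters other than Abca1.

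Abca1, which loads cholesterol onto apolipoprotein A-I, read 1299.7, 1099.6 and 1113 in M off, 894, 1102 and 1149 in M on, 1241, 1193 and 1268 in Z off, and 1205, 963 and 1132 in Z on. These values stayed within a narrow band, and each group overlapped the others it was compared with. The differences were -0.16 ± 0.17 in the M line, -0.17 ± 0.17 in the Z line and 0.08 ± 0.17 between the off groups. Its dimmer second probe set, at 77.4 to 191 units, gave 0.81 between the off groups, so the probe sets do not give the same size there. Abcg1, the exporter to larger lipoproteins, was dim and read 66.8, 49.0 and 66.1 in M off, 50.8, 83.9 and 69.9 in M on, 44.7, 42.9 and 15.3 in Z off, and 26.9, 83.8 and 71.8 in Z on. Z off lay below M off, and both on groups overlapped with their off group. Abcg1 differed by -0.96 ± 0.51 between the off groups (adjusted p = 0.703) and by 0.82 ± 0.51 in the Z line (adjusted p = 0.853).

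Abcg5 and Abcg8, which together pump sterols into bile, read as a pair. Abcg5 read 633, 755 and 618 in M off, 643, 331 and 547 in M on, 492, 468 and 377 in Z off, and 685, 769 and 341 in Z on. Abcg8 read 410.4, 467 and 333 in M off, 310.4, 269.6 and 330.0 in M on, 311, 286 and 251 in Z off, and 376, 421 and 213 in Z on. Z off lay below M off for both, M on lay below M off for Abcg8 without overlap and for Abcg5 with overlap, and Z on replicate 3 stood below the other Z on arrays. Abcg5 differed by -0.59 ± 0.34 and Abcg8 by -0.51 ± 0.27 between the off groups (limma adjusted p = 0.732 and 0.701). In the M line the differences were -0.45 ± 0.34 and -0.40 ± 0.27, and in the Z line 0.35 ± 0.34 and 0.20 ± 0.27.

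Across the 12 arrays the log2 signals of Abcg5 and Abcg8 correlated with Pearson r = 0.909 and Spearman rho = 0.888. These values are a description: the pair is shown because its signals ran together, so no p-value is given, and other pairs of genes were not computed. Without the arrays farthest from the median of Abcg5, M on replicate 2 and Z on replicate 3, r was 0.897, and after removal of the group means it was 0.880. The genes share the start region printed above, and the arrays share RNA preparation and scaling. This was the only relation across arrays that was computed.

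**Figure D4:**
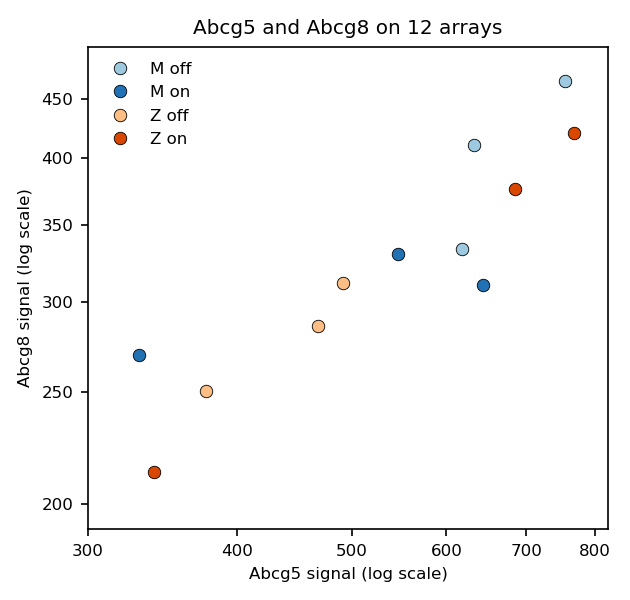
Signal of Abcg8 (vertical, log scale) against that of Abcg5 (horizontal, log scale) on the 12 arrays, coloured by group. The points rise together (Pearson r = 0.909 on log2 signals), the 3 Z off arrays lie in the lower part, and Z on replicate 3 lies at the bottom left, away from the other 2 Z on arrays.

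The remaining efflux members were Nr1h3, the LXR of liver, which differed by at most 0.10 in the comparisons between pairs of groups, and Mylip, at -0.29 ± 0.40 in the M line and -0.51 ± 0.40 in the Z line. Mylip on M on replicate 1 read 31.7, the lowest of its values, against 80.9 and 89.5 on the other M on arrays.

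Uptake and esterification genes read lower in the on groups of both lines, 3 of 3 each time, by small amounts. Of all 22626 probe sets, 11553 read lower in M on and 11992 in Z on, so 3 genes on one side say little about this arm. None of the 3 had an unadjusted p under 0.05 by limma in either line. Scarb1, the HDL receptor through which liver takes up cholesteryl ester, read 917, 848 and 832 in M off, 600.2, 871 and 742 in M on, 869, 937 and 653 in Z off, and 581, 678 and 727 in Z on. The on and off groups overlapped in both lines. Its differences were -0.25 ± 0.21 in the M line and -0.30 ± 0.21 in the Z line. Between the off groups its reported probe set gave -0.09, whereas its other probe sets gave -0.57 and -0.63. Lcat, the enzyme that esterifies cholesterol in plasma, differed by -0.05 ± 0.17 in the M line and -0.34 ± 0.17 in the Z line, where all Z on arrays lay below Z off (adjusted p = 0.804). Lrp1, a remnant receptor, differed by -0.09 ± 0.17 and -0.07 ± 0.17.

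Osbpl9, an oxysterol-binding protein relative at the Golgi, read in opposite directions in the lines by its reported probe set. Its signals were 656, 761 and 711 in M off, 583, 612 and 629.6 in M on, 525, 492 and 523 in Z off, and 687, 631 and 801 in Z on. M on lay below M off and Z on above Z off, both without overlap, as did 1204 and 1181 of all 22626 probe sets taken for each line alone. The differences were -0.22 ± 0.16 in the M line, 0.45 ± 0.16 in the Z line and -0.47 ± 0.16 between the off groups (limma adjusted p = 1.00, 0.706 and 0.546). The second probe set of Osbpl9 had means of 532 in M off, 512 in M on, 400 in Z off and 551 in Z on. The third, which was dim, read the other way in both lines (51.9, 62.8, 60.7 and 54.8 in the same order). The dimmest differed little in the M line (39.8 and 40.6) and read 11.3 and 45.9 in Z off and Z on. Rdh11, a retinol dehydrogenase and SREBP target, read 79.8 to 134 in M off, 128 to 215 in M on, 135 to 159 in Z off and 127 to 243 in Z on. Its differences were 0.60 ± 0.30 and 0.32 ± 0.30 in the M and Z lines.

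The arms were also compared by mean centred signals, in which 0 is each gene's own mean over the arrays, so that only differences between groups can be read. The mean of the 18 synthesis enzymes, each centred on its own mean over the arrays, was -0.51 ± 0.20 in M off, 0.15 ± 0.13 in M on, 0.04 ± 0.12 in Z off and 0.32 ± 0.30 in Z on (log2 scale, SD, n = 3). The mean of the 6 efflux genes was 0.13 ± 0.10, -0.05 ± 0.15, -0.09 ± 0.21 and 0.01 ± 0.18 in the same order. Synthesis minus efflux was therefore -0.65 ± 0.25, 0.20 ± 0.28, 0.14 ± 0.31 and 0.31 ± 0.45. All 3 M off arrays lay below the other 9, between -0.88 and -0.39, and the other groups overlapped with each other. No test was made on these means.

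**Figure D5:**
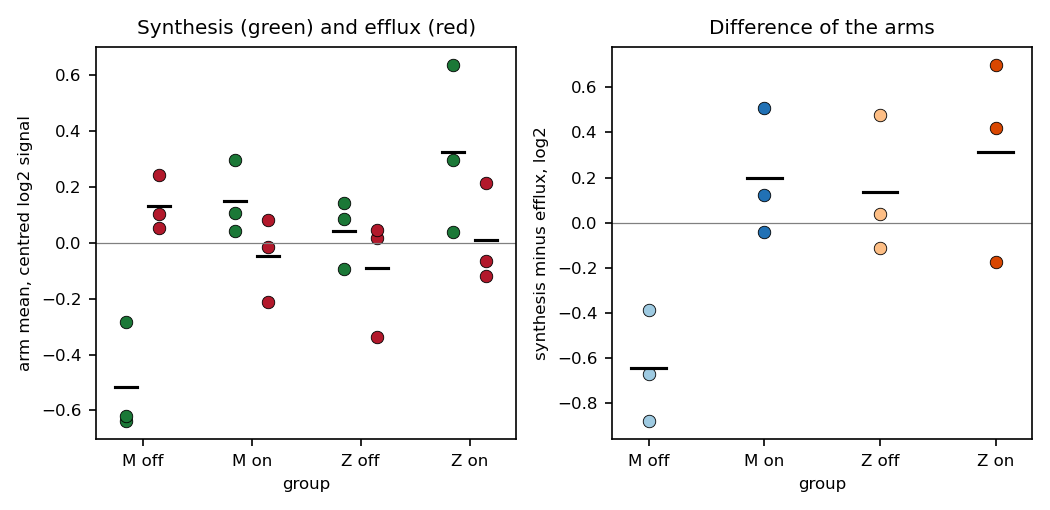
Left, mean centred log2 signal of the 18 synthesis enzymes (green) and the 6 efflux genes (red) on each array, by group; right, their difference. Points are arrays and bars are group means (n = 3); on the right the M off arrays lie between -0.88 and -0.39, below the other 9 arrays.

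The median difference of the synthesis arm minus that of the efflux arm was 0.90 in M on against M off, 0.79 in Z off against M off and 0.27 in Z on against Z off. In the Z line it was -0.02 without Z on replicate 3, and 0.20 to 0.42 without another array. The M off arrays, which enter the first and second values, had the highest Igfbp1 among the M mice. Between the off groups Igfbp1 differed by only -0.36 ± 0.58. The other feeding genes did not all follow it: in M on against M off Pck1, G6pc and Ppargc1a read higher, by 0.22, 0.27 and 0.24, as 3 of the 7, and 4 read lower. The part of feeding state in the difference was not tested.

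Neighbouring routes were read from lists of related genes, none of which had a member called by limma in any contrast. Fatty acid synthesis, driven mainly by SREBP1, leaned upward with the sterol enzymes in the M line: 8 of 8 genes read higher in M on, with a median of 0.93, against 48.9% of all probe sets, and 4 had an unadjusted p under 0.05, against 2.76%. Fasn, the fatty acid synthase, read 842 to 897 in M off, 1896 to 2493 in M on, 986 to 1442 in Z off and 1079 to 1546 in Z on, a difference of 1.37 ± 0.22 in the M line (adjusted p = 0.201). Elovl6, Acss2 and Acly differed by 1.21, 1.03 and 0.77 there. Srebf1 itself differed by 0.03 ± 0.25 in the M line. In the Z line the list split 4 and 4 with a median of -0.01, where 47.0% of all probe sets read higher. In Z off against M off 7 of the 8 read higher, with a median of 0.52, against 52.8% of all probe sets. There 4 had an unadjusted p under 0.05 by limma, against 4.44%. The M line comparison, that of the off groups and the difference of the responses share the M off arrays. The difference of the responses was below 0 for all 8, where 48.5% of all probe sets lay above 0 (median -0.86; for Fasn -1.21 ± 0.31, adjusted p = 0.658).

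In the bile acid route (7 of 7 genes measured), Cyp7a1, the rate-limiting enzyme, read 253 to 431 in M off, 743 to 1643 in M on, 734 to 843 in Z off and 1078 to 2316 in Z on. On lay above off in both lines, by 1.83 ± 0.37 in the M line (adjusted p = 0.4) and 0.89 ± 0.37 in the Z line (adjusted p = 0.77). Over both states Cyp7b1, Cyp8b1 and Cyp27a1 read 1.39, 1.21 and 0.57 higher in Z mice (limma adjusted p = 0.0801, 0.208 and 0.135). On against off, they differed by -0.83 ± 0.31, 0.82 ± 0.38 and -0.02 ± 0.16 in the M line. Of 7 measured among 12 further sterol genes, Srebf1 and Vldlr read -0.74 and -0.95 in Z against M mice (limma adjusted p = 0.255 and 0.26). Of the 9 genes of SREBP cleavage and transport 4 were measured, and none differed by more than 0.48 within a line; Sec23a and Sec24d had the smallest p.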

How the data were processed

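Liver RNA of 12 mice, purified with TRIZOL and RNeasy and labelled with biotin, was hybridised to 1-colour arrays (per the labels' protocols). Each deposited intensity is the linear signal of a probe set on an array. The submitters' processing notes name RMA, whose output would be log2 values alike in distribution; the deposited values are linear, reach 37251.7, share a 2% trimmed mean (150.075 to 150.083) and differ in median, and their software is not named in those sources. Because 28.4% of values lie below 16, log2 differences of dim probe sets are less certain.

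The 64 control probe sets were left out, and 22626 were tested. Of these, 20380 had 1 gene symbol in the platform annotation, 691 had several and 1555 none; only the first kind was named. Signals were taken to log2 after 1 value of 0 was set to 0.1, with no filter. limma 3.58.1 in R 4.3.3 (lmFit and eBayes, both directions) fitted 1 mean per group to all 12 arrays, and 7 contrasts were taken. P-values were adjusted by Benjamini-Hochberg over the 22626 probe sets. The fit was tested on simulated data. The titles gave the groups, and the number of arrays, 3 per group, limits the precision.

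The members, arms and lists were chosen with earlier results of these data known. Values on every array are given for members with an unadjusted p under 0.01 in a contrast, and for Srebf2, Insig2, Abca1, Abcg1, Abcg5, Abcg8 and Scarb1 whatever their p; of related genes, for up to 4 per list with the smallest p. Osbpl9 was singled out after its values were seen. Promoter windows (250 bases before and 50 after a start) came from RefSeq, GRCm38.p6. Alternatives were other normalizations, added constants, variance settings, filters, array weights, a replicate block, averaging a gene's probe sets, and leaving out arrays in turn.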

Additional observations from a re-analysis of the deposited data

Results flagged for a closer look

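Osbpl9 met the rule for opposite movement in the lines: every M on array read below every M off array, and every Z on array above every Z off array. Of all 22626 probe sets, 1204 met the first part of the rule and 1181 the second. The share that met both was not computed. The difference of the responses was 0.67 on the log2 scale. limma's interaction test did not pass (adjusted p = 0.922). Its second probe set gave -0.06 in the M line and 0.47 in the Z line, and another, at 33.2 to 79.7 units, gave 0.26 and -0.15, the opposite directions. Its dimmest probe set, of 4, read 16, 8.5 and 9.4 in Z off against 33.9 to 59.1 on the other 9 arrays, a difference of 2.05 in the Z line (adjusted p = 0.146) and 0.05 in the M line. Groups of 3 arrays were too small for a search for single outlying arrays.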

How the results depend on the processing

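Over 22 other settings and 55 results, 905 of 1000 comparisons kept the direction and the side of the threshold or stayed within the spread, 87 moved and 8 became calls. The 905 do not measure robustness. The arm medians could not change with the intensity trend, the replicate block or fits of a contrast's groups alone, and did not with the filter on level. The 905 also include Cyp51 in the M line, at 1.07 in the fit reported and 0.06 with its probe sets averaged. No member was called in the fit reported, so none could be lost. Uncalled medians changed sign 7 times, each to a value near 0, though synthesis minus efflux in the Z line started from 0.27. Synthesis minus efflux went from 0.27 to -0.025 in the Z line without Z on replicate 3, and in Z on against M on from 0.042 to -0.066 without M on replicate 3 and to -0.026 when a gene's probe sets were averaged. The efflux median went from 0.061 to -0.018 in the Z line without Z on replicate 2, from 0.084 in Z on against M on to -0.012 without that array and -0.0021 without M on replicate 1, and from -0.075 to 0.0093 in on against off over both lines without Z on replicate 3. Members called, 0 in the fit reported, became 1 in Z off against M off with an intensity trend and robust variances (Pmvk, adjusted p = 0.0339), and 2 in on against off over both lines with that setting (Hmgcs1, 0.0478; Cyp51, 0.0260). In Z against M over both states they became 2 with 50 added before log2 (limma adjusted p = 0.0484 for Idi1 and 0.0460 for Pmvk). They became 2 with the trend and 1 with only probe sets above the median level (Pmvk, 0.0320). Calls rose over the whole arrays in the same settings. With the trend, probe sets called went from 16 to 51 in Z off against M off and from 2 to 17 in on against off. In Z against M they went from 20 to 85 with 50 added, 110 with the trend and 87 with the filter on level. The median of the efflux arm ranged from -0.35 to -0.031 in the M line and from 0.087 to 0.36 in the difference of the responses when single arrays were left out. Probe sets called ranged from 0 to 51 in Z off against M off and from 12 to 110 in Z against M over all settings other than those leaving out an array, and from 1 to 6 and 7 to 18 when an array was left out. Over the same settings they ranged from 0 to 8 in each line's on against off, 0 to 3 in the difference of the responses, 0 to 22 in Z on against M on and 1 to 17 in on against off over both lines. When each fit held the arrays of 1 contrast alone, the calls went to 0 in Z on against Z off (from 3), Z on against M on (from 2) and Z off against M off (from 16). In Z on against Z off, the synthesis enzymes at an unadjusted p under 0.05 numbered 4, but 0 with only those groups in the fit, 1 with median centring, 2 with array weights, 2 after averaging the probe sets of each gene, 7 with 50 added and 8 with the trend, and the mean of all probe sets lowered their median from 0.33 to 0.20. In Z off against M off, 8 became 4 with median centring. In M on against M off, 9 became 6 with the mean of all probe sets. The cause of these moves was not tested. Fitting only the groups of a contrast was not possible for the 3 contrasts that use all groups.

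The labels number replicates 1 to 3 in every group. Deviations of arrays with the same number correlated at a median r of 0.017 over 18 pairs (-0.083 to 0.161). Those with different numbers did so at -0.011 over 36 pairs (-0.183 to 0.157). Above 0.1 lay 3 pairs of each kind, and the 3 with the same number each joined an off and an on array of one line. Such values cannot settle whether the numbers pair the samples, and the labels do not say. In this balanced design a replicate block cannot change a group difference (the synthesis median in the M line is 0.67 by construction), only its error. No member was called with it, and the probe sets called in Z off against M off went from 16 to 6.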
